A study of Mus musculus with 4 samples.

Results

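The genes for the receptors of amines, acetylcholine and neuropeptides were followed for occupancy by Ring1B, the ubiquitin ligase of Polycomb repressive complex 1 (PRC1), in mouse embryonic fibroblasts. Members were all gene names on the arrays that matched a fixed name pattern for adrenergic, dopamine, serotonin, histamine, muscarinic, nicotinic, neuropeptide Y, somatostatin, opioid, tachykinin, galanin and melanocortin receptors. This gave 69 of 18354 gene names, with 2268 of 462572 probes, and all 69 could be measured. The fibroblasts came from C57BL/6 embryos of day 12.5 and were used at passage 2. They were either homozygous for Phc2 L307R (Phc2 L307R/L307R) or wild type. Phc2 is a PRC1 subunit with a SAM domain through which it polymerises. The title of the series names this polymerisation, and the arrays set Ring1B on promoters of cells with the altered Phc2 against that of normal cells. Immunoprecipitated DNA (Cy5) was hybridised against input DNA (Cy3) on promoter arrays of 2 designs, with 1 array per genotype and design.

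Every promoter was therefore measured once in each genotype, so no spread between cultures and no p-value can be given. The SD printed beside a value is that over 3 neighbouring probes and does not measure biological variation. Phc2 L307R and wild-type arrays were scanned on different days, so that an effect of the scan cannot be told apart from one of genotype. Between 97.9% and 99.7% of probes had immunoprecipitate signal well above background. For input this share was lower, 74.97% and 76.3% in Phc2 L307R and 85.7% and 86.7% in wild type. The authors also deposited value tables. For Phc2 L307R these hold the scanner values shifted by a constant at 99.9% of probes, but for wild type their correlation with the scanner files was 0.854 on design 1 and 0.890 on design 2. Values below are from the scanner files unless the value tables are named.

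Most are G protein-coupled receptors, which pass a transmitter signal to Gs, Gi or Gq proteins, whereas nicotinic receptors and the serotonin receptors encoded by Htr3 genes are ion channels built from 5 subunits. Their main sites are neurons, muscle, heart, vessels, glands and fat, and most are little used by fibroblasts. PRC1 keeps many genes of other lineages silent, and it is found mainly at promoters rich in CG pairs, the CpG islands. Ring1B is one of the alternative catalytic subunits of that complex.

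Reference promoters are shown first, so that the level of Ring1B can be read beside the CG pairs of the promoter. RefSeq promoters of GRCm38.p6 (300 bases around the start) were found for 49 of the 69 genes. Each is written 5′ to 3′ on the strand of the gene, with CG pairs in capitals. The sources used here do not give the build of the array positions, so these promoters were not placed on the probes. The 3 nicotinic subunit genes of the cluster on chromosome 9 stand first, since the subunits are neighbours and differed in Ring1B. Chrna5 lies at chr9:54981238-54981537 on the plus strand with 25 CG pairs, and a second listed start at chr9:54980630-54980929 has 5. Chrna3 lies at chr9:55026513-55026812 on the minus strand with 18 CG pairs, and Chrnb4 at chr9:55048495-55048794 on the minus strand with 14.
Chrna5: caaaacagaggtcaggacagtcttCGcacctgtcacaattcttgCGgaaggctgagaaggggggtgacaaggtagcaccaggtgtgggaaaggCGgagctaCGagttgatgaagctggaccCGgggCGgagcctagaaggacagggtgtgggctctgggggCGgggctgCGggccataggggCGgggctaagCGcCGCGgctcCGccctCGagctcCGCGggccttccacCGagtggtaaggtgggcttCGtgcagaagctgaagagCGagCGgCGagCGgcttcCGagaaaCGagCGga
Chrna3: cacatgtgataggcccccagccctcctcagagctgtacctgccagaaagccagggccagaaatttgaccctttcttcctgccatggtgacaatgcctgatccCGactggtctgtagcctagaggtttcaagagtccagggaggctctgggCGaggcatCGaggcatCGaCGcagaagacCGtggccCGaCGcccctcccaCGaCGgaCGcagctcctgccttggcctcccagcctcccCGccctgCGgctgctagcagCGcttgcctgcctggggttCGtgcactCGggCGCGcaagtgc
Chrnb4: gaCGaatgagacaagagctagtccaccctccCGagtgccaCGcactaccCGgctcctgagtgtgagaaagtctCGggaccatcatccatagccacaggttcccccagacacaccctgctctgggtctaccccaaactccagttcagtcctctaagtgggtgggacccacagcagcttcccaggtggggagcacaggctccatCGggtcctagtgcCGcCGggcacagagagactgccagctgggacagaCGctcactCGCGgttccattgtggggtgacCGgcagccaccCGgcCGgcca

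Promoters with more Ring1B than most members are next. Adra2a (chr19:54045009-54045308, plus strand) and Adrb1 (chr19:56721867-56722166, plus strand) have 28 CG pairs each. Sstr4 (chr2:148395127-148395426, plus strand) has 35, and Htr2a (chr14:74640624-74640923, plus strand) has 6.
Adra2a: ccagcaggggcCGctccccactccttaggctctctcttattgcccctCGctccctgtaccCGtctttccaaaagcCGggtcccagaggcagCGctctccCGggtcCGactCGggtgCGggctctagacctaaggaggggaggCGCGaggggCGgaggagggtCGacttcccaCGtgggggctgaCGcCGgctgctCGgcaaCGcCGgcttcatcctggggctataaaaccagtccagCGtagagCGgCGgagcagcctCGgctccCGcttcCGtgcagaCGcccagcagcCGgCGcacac
Adrb1: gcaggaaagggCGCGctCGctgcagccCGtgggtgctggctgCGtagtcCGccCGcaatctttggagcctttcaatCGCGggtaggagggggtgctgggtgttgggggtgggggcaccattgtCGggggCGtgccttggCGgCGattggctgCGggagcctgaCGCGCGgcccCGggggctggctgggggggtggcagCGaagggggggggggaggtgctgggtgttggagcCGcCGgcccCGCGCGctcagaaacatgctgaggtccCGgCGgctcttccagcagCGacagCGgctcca
Sstr4: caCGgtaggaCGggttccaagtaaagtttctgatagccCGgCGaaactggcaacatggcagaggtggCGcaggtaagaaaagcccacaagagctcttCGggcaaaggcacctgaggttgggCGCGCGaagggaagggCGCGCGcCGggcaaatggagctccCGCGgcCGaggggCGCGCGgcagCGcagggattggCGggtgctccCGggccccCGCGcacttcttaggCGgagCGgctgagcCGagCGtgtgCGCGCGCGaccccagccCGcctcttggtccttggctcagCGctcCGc
Htr2a: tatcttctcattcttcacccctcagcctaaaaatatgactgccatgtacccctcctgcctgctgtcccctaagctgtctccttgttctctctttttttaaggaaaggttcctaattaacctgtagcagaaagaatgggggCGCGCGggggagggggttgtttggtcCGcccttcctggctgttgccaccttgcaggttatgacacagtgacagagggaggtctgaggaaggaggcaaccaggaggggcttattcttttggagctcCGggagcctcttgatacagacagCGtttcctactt

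Promoters below the cut-off for binding in both genotypes are Oprd1 (chr4:132144437-132144736, minus strand, 43 CG pairs), Drd5 (chr5:38319259-38319558, plus strand, 38) and Drd3 (chr16:43761971-43762270, plus strand, 2). Chrm2 (chr6:36387834-36388133, plus strand, 16 CG pairs) is the one member that met the size rule described below.
Oprd1: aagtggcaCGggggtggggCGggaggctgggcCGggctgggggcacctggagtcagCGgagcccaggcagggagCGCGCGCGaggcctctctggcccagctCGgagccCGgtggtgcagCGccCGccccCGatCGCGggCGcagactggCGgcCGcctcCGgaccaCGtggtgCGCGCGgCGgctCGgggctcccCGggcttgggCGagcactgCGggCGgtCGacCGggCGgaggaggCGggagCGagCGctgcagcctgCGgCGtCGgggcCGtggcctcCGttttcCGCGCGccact
Drd5: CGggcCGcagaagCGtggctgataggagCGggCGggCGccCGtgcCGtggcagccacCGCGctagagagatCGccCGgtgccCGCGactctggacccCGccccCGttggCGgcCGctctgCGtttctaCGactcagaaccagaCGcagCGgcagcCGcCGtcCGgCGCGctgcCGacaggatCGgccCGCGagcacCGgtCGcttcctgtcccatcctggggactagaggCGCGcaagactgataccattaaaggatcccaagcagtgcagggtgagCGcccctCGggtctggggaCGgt
Drd3: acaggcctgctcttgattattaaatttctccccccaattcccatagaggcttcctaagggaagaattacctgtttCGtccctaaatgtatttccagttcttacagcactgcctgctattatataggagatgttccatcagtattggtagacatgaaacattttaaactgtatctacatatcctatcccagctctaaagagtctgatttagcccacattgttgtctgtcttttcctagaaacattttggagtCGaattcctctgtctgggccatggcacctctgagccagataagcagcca
Chrm2: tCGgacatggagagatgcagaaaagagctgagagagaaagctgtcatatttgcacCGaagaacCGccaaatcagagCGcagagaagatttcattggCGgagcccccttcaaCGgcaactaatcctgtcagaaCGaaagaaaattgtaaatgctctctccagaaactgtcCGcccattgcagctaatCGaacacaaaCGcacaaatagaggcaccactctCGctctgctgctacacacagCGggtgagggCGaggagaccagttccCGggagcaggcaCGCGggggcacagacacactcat

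Ring1B is given as the log2 ratio of immunoprecipitate over input, centred on the median of each array, in the window of 3 neighbouring probes within 2000 bp whose mean over both genotypes was highest. Windows with a mean of 1 or more, a ratio of 2 over the array median, counted as bound. Of the 69 receptor promoters, 24 (34.8%) were bound in Phc2 L307R, against 39.3% of all 17649 promoters. In wild type 20 (29.0%) were bound, against 45.4% of all promoters. The median level of the members was 0.66 in Phc2 L307R and 0.61 in wild type, and that of all promoters 0.80 in Phc2 L307R and 0.90 in wild type. The members' share was below that of all promoters in both genotypes here, but in Phc2 L307R this depended on the setting. After normexp 12 of 69 were bound in Phc2 L307R, against 12.8% of all promoters, and 14 of 69 in wild type, against 22.9%. At a cut-off of 1.5 there were 15 of 69 in Phc2 L307R, against 18.6%, and 10 of 69 in wild type, against 22.0%. No test of these gaps was possible with 1 array per genotype. At 21 members in Phc2 L307R and 32 in wild type no single probe reached 1. That count was not made over all promoters, so nothing particular to the members is read from it.

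A level of 3 or more in either genotype was reached by 1 of the 69 members, Chrna5, a share near the 1.93% of all promoters. A level of 2 or more was seen at 2 members in Phc2 L307R (Chrna5 and Adra2a) and at 4 in wild type (those and Htr2c and Adrb1). In wild type, Chrna5 ranked 240 among the 17649 promoters. The cut-off of 1 was also passed at fibroblast marker genes, whose expression was not measured here. Of 10 promoters of fibroblast marker genes, such as the collagen genes Col1a1 and Col3a1, 9 were bound in each genotype, with a median of 2.42 in Phc2 L307R and 2.17 in wild type. What part signal of that kind has in the receptor values was not tested.

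**Figure D1:**
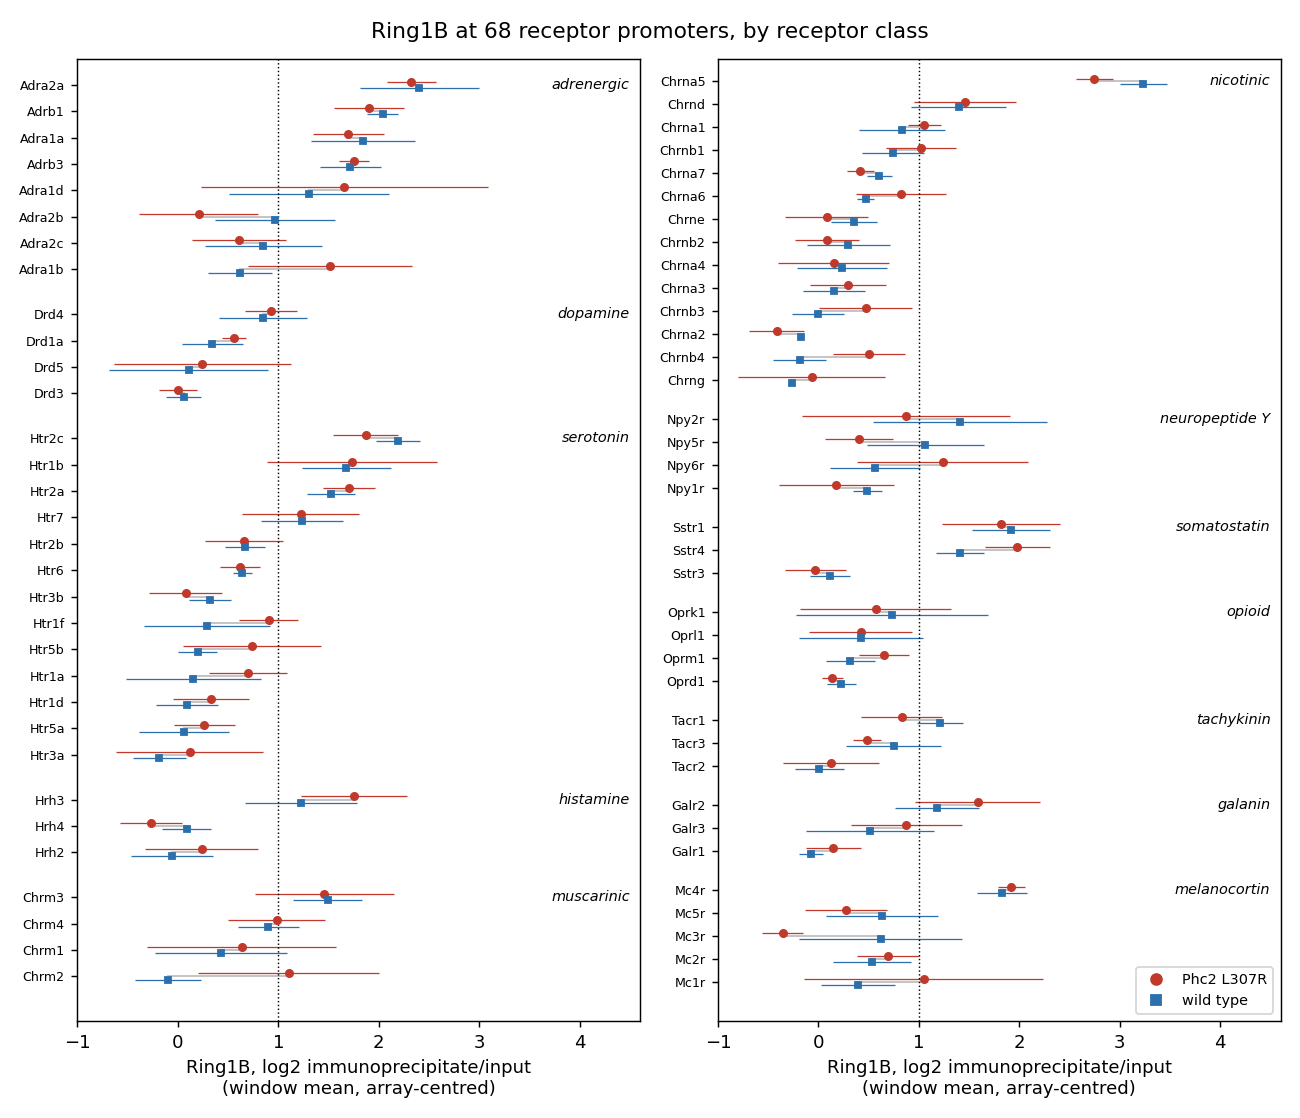
Ring1B at 68 of the 69 receptor promoters, grouped by class, with the log2 immunoprecipitate/input ratio (array-centred window mean) on the x axis. Red circles are Phc2 L307R and blue squares wild type, 1 array each, bars are the SD over 3 probes and the dotted line is the cut-off of 1. Adrenergic promoters lie mostly right of the line, while all 4 dopamine and all 4 opioid promoters lie left of it in both genotypes. Over all promoters 39.3% reach the cut-off in Phc2 L307R and 45.4% in wild type.

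Adrenergic receptors, which answer adrenaline and noradrenaline, had the highest share of bound promoters of the larger classes, with 7 of 9 in Phc2 L307R and 5 of 9 in wild type. Over all promoters the shares were 39.3% in Phc2 L307R and 45.4% in wild type. No result about the class is read from so few genes. Adra2a, the receptor through which noradrenergic neurons restrain their own release, stood at 2.33 (SD 0.25) in Phc2 L307R and 2.41 (SD 0.59) in wild type. Adrb1, the main beta receptor of heart muscle, stood at 1.90 (SD 0.35) in Phc2 L307R and 2.04 (SD 0.15) in wild type. Adra1a, which contracts smooth muscle, had 1.70 in Phc2 L307R and 1.84 in wild type. Adrb3, the lipolytic receptor of fat, had 1.75 in Phc2 L307R and 1.72 in wild type. These 4 promoters differed between genotypes by 0.15 or less in the scanner ratios. In the value tables the differences were -1.09 for Adra2a, -0.88 for Adrb1, -0.89 for Adra1a and -0.40 for Adrb3.

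Adra1d and Adra1b also contract smooth muscle. Adra1d had 1.66 (SD 1.42) in Phc2 L307R and 1.31 in wild type. Adra1b had 1.52 in Phc2 L307R and 0.62 in wild type, a difference of 0.90 with an SD of 0.98 over its probes. One of its 3 probes stood apart, at 2.45 in Phc2 L307R and 0.53 in wild type. The other alpha-2 genes were below the cut-off in both genotypes, Adra2c with 0.61 in Phc2 L307R and 0.85 in wild type, and Adra2b with 0.21 in Phc2 L307R and 0.97 in wild type.

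In the scanner ratios, the same 4 of 13 serotonin receptor promoters were bound in both genotypes. Over all promoters 39.3% were bound in Phc2 L307R and 45.4% in wild type. Htr2c, a receptor of choroid plexus and hypothalamus, stood at 1.87 (SD 0.32) in Phc2 L307R and 2.19 (SD 0.22) in wild type. Htr2a, the cortical receptor on which classical psychedelics act, stood at 1.70 in Phc2 L307R and 1.52 in wild type. Htr1b, a receptor of axon terminals that lowers transmitter release, had 1.73 in Phc2 L307R and 1.68 in wild type, and the Gs-coupled Htr7 had 1.22 in Phc2 L307R and 1.24 in wild type. In the value tables, in their own best windows, differences were -0.96 for Htr2c, -0.31 for Htr2a, 0.20 for Htr1b and -0.89 for Htr7.

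The other 9 serotonin promoters lay between 0.08 and 0.90 in Phc2 L307R and between -0.19 and 0.67 in wild type. Among them were both ion channel genes, Htr3a and Htr3b, and Htr1a, the autoreceptor of raphe neurons, with 0.70 in Phc2 L307R and 0.15 in wild type. Closest to the cut-off in Phc2 L307R was Htr1f, with 0.90 there and 0.29 in wild type, and in wild type Htr2b, with 0.66 in Phc2 L307R and 0.67 in wild type. In the value tables Htr1f had 1.38 in wild type and a difference of -0.47.

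Nicotinic receptor genes encode the subunits of the acetylcholine-gated channels. Chrna5, an accessory subunit of neuronal receptors, had the highest Ring1B of all 69 members, at 2.75 (SD 0.19) in Phc2 L307R and 3.23 (SD 0.24) in wild type. Its 3 probes had 2.70, 2.59 and 2.95 in Phc2 L307R, against 3.27, 3.45 and 2.98 in wild type, so 2 of the 3 were lower in Phc2 L307R and the last was near equal. Input was well above background at 1 of these probes in Phc2 L307R and at 3 in wild type. Of its 27 probes, 8 in Phc2 L307R and 14 in wild type were at or above 1. The difference of -0.49 did not reach the size rule of 1, but in the value tables it was -1.52. Its window lies at positions 54780383 to 54780870 of chromosome 9 in the build of the arrays.

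Chrna3 and Chrnb4, which form the main receptor of autonomic ganglia with or without Chrna5, showed no such signal in the main setting. Chrna3 had 0.30 in Phc2 L307R and 0.16 in wild type, and Chrnb4 had 0.50 in Phc2 L307R and -0.19 in wild type. Neither had a probe at or above 1 in either genotype. The tiled stretch of Chrna5 is 40216 bp from that of Chrna3. Chrnb4 was tiled in 2 stretches, and the one 1068 bp from Chrna3 lies away from its window. Probes of that stretch are at -21144 to -18392 bp from the window centre. Within this cluster the Ring1B signal was thus seen at 1 of 3 tiled promoters in the main setting. The other promoters, with 18 and 14 CG pairs, were below the cut-off there. Chrna3 was bound in wild type in 1 of the 12 settings of processing. In the value tables it had 0.93 in wild type and a difference of -0.63.

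The 5 subunits of the muscle receptor stood near or below the cut-off. Chrnd, a subunit of both the embryonic and the adult receptor, had 1.46 in Phc2 L307R and 1.39 in wild type, but input was not well above background at any of its 3 probes on either array. Chrna1 had 1.06 in Phc2 L307R and 0.83 in wild type, and Chrnb1 had 1.02 in Phc2 L307R and 0.74 in wild type. In the same windows of the value tables wild type had 1.19 at Chrna1 and 1.33 at Chrnb1. Chrng, the embryonic subunit, had -0.07 in Phc2 L307R and -0.26 in wild type, although its tiled stretch begins 8478 bp from that of Chrnd. Chrne, the adult subunit, had 0.08 in Phc2 L307R and 0.35 in wild type. The other 8 neuronal subunit genes measured were all below the cut-off in both genotypes, including Chrna4 and Chrnb2 of the main brain receptor and Chrna7.

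**Figure D2:**
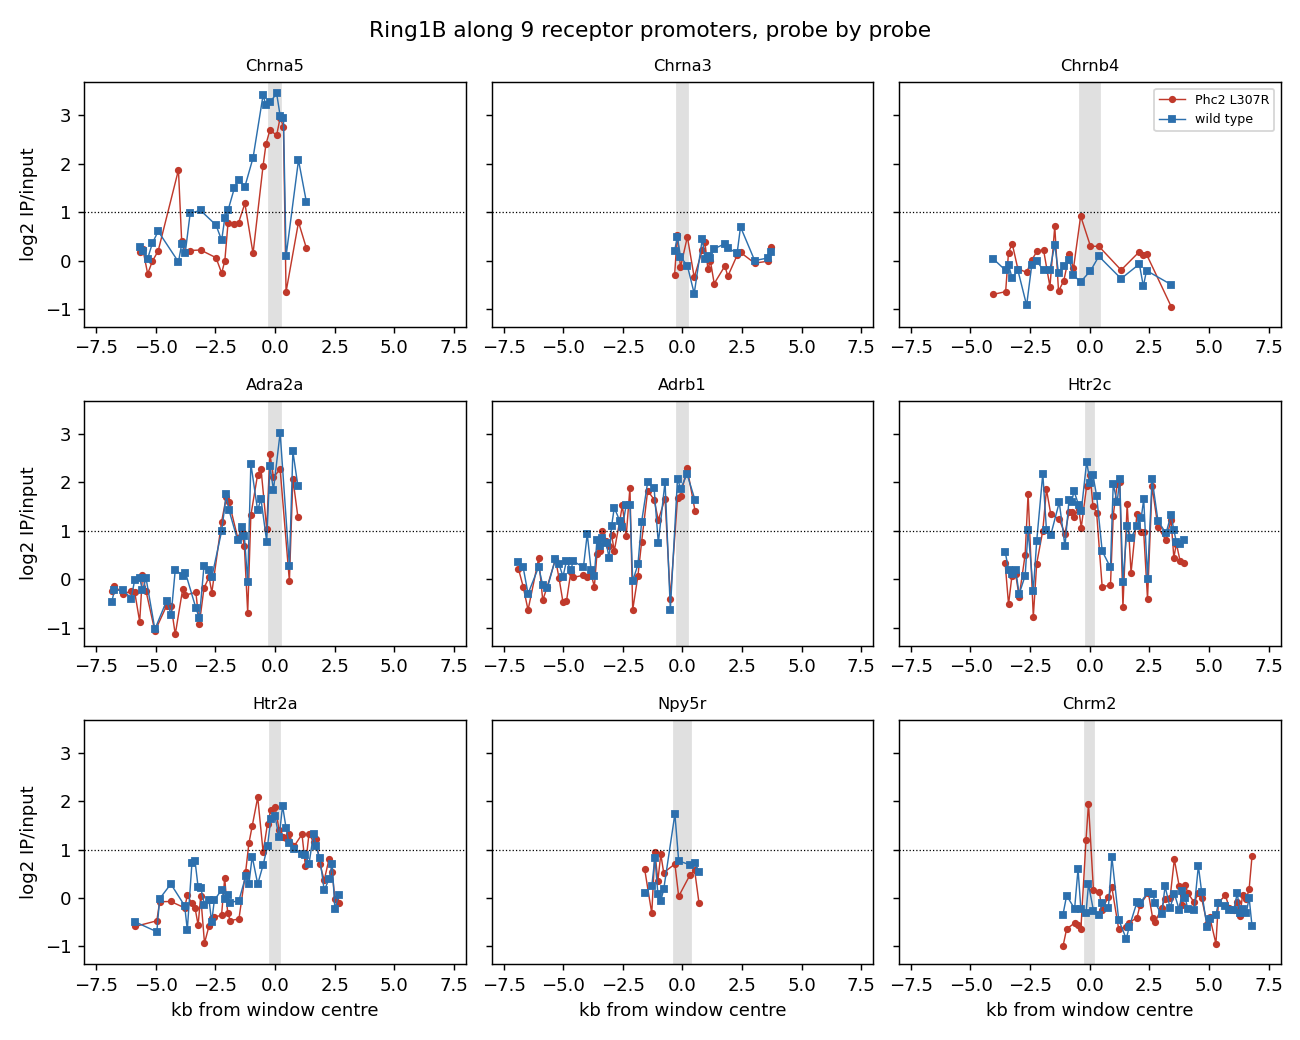
Log2 immunoprecipitate/input ratio of single probes against the distance from the window centre in kb, within 8 kb, in Phc2 L307R (red circles) and wild type (blue squares). Grey bands are the windows, and the dotted line is the cut-off of 1. Chrna5 has a peak of 2.95 in Phc2 L307R and 3.45 in wild type inside its window, while Chrna3 and Chrnb4 of the same cluster have no probe above 1.

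Muscarinic receptors are the G protein-coupled acetylcholine receptors. Chrm3, which drives gland secretion, had 1.46 in Phc2 L307R and 1.49 in wild type. Chrm2, the receptor that slows the heart, had 1.10 (SD 0.90) in Phc2 L307R and -0.10 (SD 0.33) in wild type. Its 3 probes had 1.20, 1.95 and 0.16 in Phc2 L307R, against -0.32, 0.28 and -0.26 in wild type. Chrm1 and Chrm4 of the brain were below the cut-off in both genotypes, with 0.63 and 0.98 in Phc2 L307R and 0.43 and 0.90 in wild type.

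Among bound promoters, a difference of 1 or more on the log2 scale (2-fold) in the same direction at all 3 probes counted as lower or higher in Phc2 L307R. By this rule 0 of the 27 members bound in either genotype were lower, against 3.01% of all bound promoters, and 1 was higher, against 1.64%. The one higher promoter was Chrm2, at a difference of 1.20 (SD over its probes 0.68). Input was not well above background at any of its 3 probes in Phc2 L307R. When dim probes of either channel were left out, this window lost all 3 probes. The difference of -0.18 in that setting came from another stretch of the gene and is no repeat at this site. After normexp background correction the difference was -0.10, in the window chosen on those ratios. Both counts lie near these background shares, and no result about the members is read from them.

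**Figure D3:**
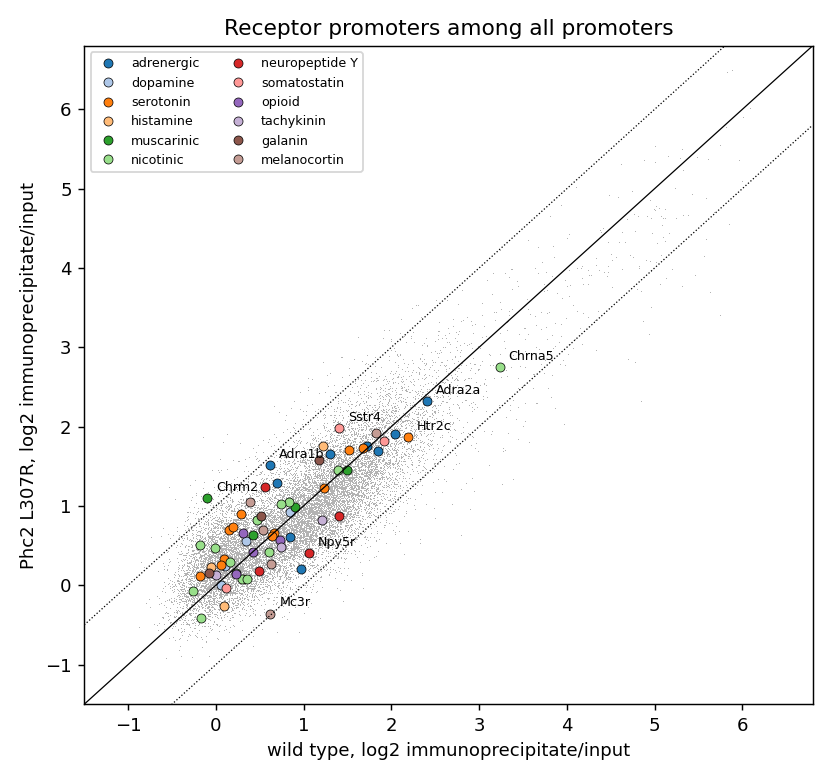
Ring1B (log2 immunoprecipitate/input) in wild type on the x axis and in Phc2 L307R on the y axis, for all 17649 promoters (grey) and the 69 receptor promoters (coloured by class). The solid line marks equal values and the dotted lines a difference of 1. Receptors reach 3.23 in wild type, against 6.09 for all promoters, with Chrna5 furthest to the right and Chrm2 outside the dotted lines.

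Over all 69 members the median difference, Phc2 L307R minus wild type, was 0.08, against -0.05 over all promoters, and it was below 0 at 31 of 69, against 54.5% of all. Over the 27 members bound in either genotype it was 0.06, with 11 of 27 below 0, whereas over all bound promoters it was -0.14 with 61.9% below 0. The difference was under 0.5 in size at 54 members (78.3%), against 75.8% of all promoters. At 48 members it was smaller than the SD of the difference over the 3 probes. The levels in both genotypes correlated across the 69 members at 0.85 (Pearson), a description only, and over all promoters also at 0.85. Genes are not independent replicates, and members on 1 design share the same arrays.

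With the value tables, 26 members were bound in Phc2 L307R, against 39.7% of all promoters, and 24 in wild type, against 45.1%. There 3 of 31 bound members met the rule for lower and 0 for higher, against 8.25% and 0.585% of all bound promoters. The 3 were Chrna5 (-1.52), Npy5r (-1.21) and Adra2a (-1.09), each in the best window of the value tables. In the window chosen on the scanner ratios Npy5r was at -0.90, and the other values were the same. The median over all members was then -0.13, with 39 of 69 below 0, against 56.1% of all promoters. The Phc2 L307R values are the same arrays, and the wild-type values differ. In the windows of the 27 bound members, the wild-type value-table ratio was above the scanner ratio at 21, by a median of 0.44. For Adra2a the wild-type level was 3.42 in the value table and 2.41 in the scanner file. For Chrna5 the value table had 4.27 and the scanner file 3.23. Chrna5 also met the rule for lower on the scanner files after normexp background correction, at -1.21, and its difference was negative in all 12 settings. Adra2a met the rule for lower with the value tables alone among these settings.

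**Figure D4:**
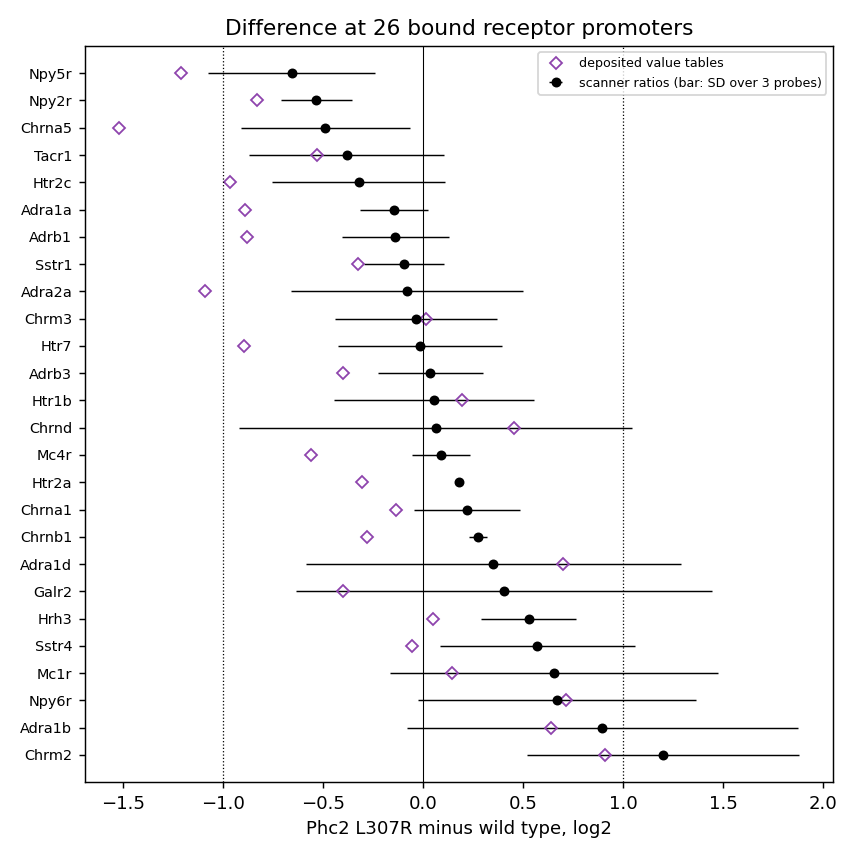
Difference in Ring1B, Phc2 L307R minus wild type (log2), at 26 of the 27 receptor promoters bound in either genotype, from the scanner ratios (black, bars are the SD over 3 probes) and the deposited value tables (purple diamonds, in their own best window). Dotted lines mark differences of -1 and 1. Chrna5, Npy5r and Adra2a pass -1 in the value tables and not in the scanner ratios, and Chrm2 passes 1 in the scanner ratios.

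In the scanner ratios the call of bound differed between genotypes at a few members. Bound in wild type and not in Phc2 L307R were 3 of 20 members, Npy2r, Npy5r and Tacr1, against 25.8% of all promoters bound in wild type. Bound in Phc2 L307R and not in wild type were 7 of 24, among them Adra1b, Chrm2, Mc1r, Npy6r, Chrna1 and Chrnb1, against 14.1% of all promoters bound in Phc2 L307R. Of these 10, Chrm2 alone differed by 1 or more, and the others crossed the cut-off by smaller steps. In the same windows of the value tables Chrna1 and Chrnb1 were bound in wild type, with differences of -0.14 and -0.31. Adra1b, Chrm2, Mc1r and Npy6r stayed below the cut-off in wild type there, with positive differences.

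Neuropeptide Y receptors, which govern appetite among other functions, included 2 of the 3 promoters bound in wild type alone. Npy2r, the presynaptic receptor, had 0.87 in Phc2 L307R and 1.41 in wild type, a difference of -0.53 (SD 0.18). Npy5r had 0.40 in Phc2 L307R and 1.06 in wild type, with 0.70, 0.03 and 0.48 in Phc2 L307R and 1.73, 0.77 and 0.68 in wild type at its 3 probes. Npy1r had 0.18 in Phc2 L307R and 0.49 in wild type. Npy6r went the other way, with 1.24 in Phc2 L307R and 0.56 in wild type. In the value tables, each with its own best window, the differences were -0.83 for Npy2r, -1.21 for Npy5r, -0.36 for Npy1r and 0.72 for Npy6r.

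Somatostatin receptors inhibit hormone release through Gi. Sstr1 had 1.82 in Phc2 L307R and 1.91 in wild type, and Sstr4 had 1.98 in Phc2 L307R and 1.41 in wild type. Sstr3 had -0.03 in Phc2 L307R and 0.11 in wild type, with no probe at or above 1. The Sstr4 difference of 0.57 (SD 0.49) was -0.06 in the value tables.

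Melanocortin receptors answer peptides cut from pro-opiomelanocortin. Mc4r, the hypothalamic receptor that limits food intake, had 1.92 (SD 0.13) in Phc2 L307R and 1.83 (SD 0.25) in wild type, although in Phc2 L307R input was not well above background at any of its 3 probes. The pigment cell receptor Mc1r had 1.05 (SD 1.19) in Phc2 L307R and 0.39 in wild type. Mc2r, the receptor for ACTH, had 0.69 in Phc2 L307R and 0.54 in wild type, and Mc5r of exocrine glands 0.27 in Phc2 L307R and 0.63 in wild type. Mc3r had -0.36 in Phc2 L307R and 0.62 in wild type, the lowest difference of all members at -0.98, yet its probes differed with an SD of 0.89 and the value tables gave -0.14 in their own window.

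Histamine and galanin receptors each had 1 of 3 promoters bound in both genotypes, and tachykinin receptors 0 of 3 in Phc2 L307R and 1 of 3 in wild type. Hrh3, the presynaptic histamine receptor, had 1.75 in Phc2 L307R and 1.22 in wild type, with input well above background at 0 of its 3 probes in Phc2 L307R and at 1 in wild type. Galr2 had 1.58 in Phc2 L307R and 1.18 in wild type. Tacr1, the substance P receptor, had 0.83 in Phc2 L307R and 1.21 in wild type. The remaining 6 genes of these classes lay at or below 0.87 in Phc2 L307R and 0.75 in wild type.

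Dopamine and opioid receptors had no bound promoter in either genotype in the main setting. Over all promoters 39.3% were bound in Phc2 L307R and 45.4% in wild type. With 4 genes in each class no result is read from these counts. Drd4 was bound in wild type in 2 of the 12 settings, among them the value tables, where its difference was -0.64. The 4 dopamine genes measured did not include Drd2. Drd1a (now Drd1) and Drd5, the Gs-coupled dopamine receptors, had 0.56 and 0.24 in Phc2 L307R and 0.34 and 0.11 in wild type. Drd4 had 0.93 in Phc2 L307R and 0.85 in wild type, and Drd3 had 0.00 in Phc2 L307R and 0.06 in wild type. Among opioid receptors, Oprm1, on which morphine acts, had 0.65 in Phc2 L307R and 0.32 in wild type. The kappa receptor gene Oprk1 had 0.57 in Phc2 L307R and 0.73 in wild type, the nociceptin receptor gene Oprl1 had 0.42 in both, and the delta receptor gene Oprd1 had 0.14 in Phc2 L307R and 0.23 in wild type.

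Signal was broad at some of the bound promoters. In Phc2 L307R 8 members and in wild type 9 members had 10 or more probes at or above 1. This count depends on tiling, since members had from 11 to 68 probes. It was not made over all promoters, so nothing particular to the members is read from it. Htr2c had 22 of 68 such probes in Phc2 L307R and 24 of 68 in wild type, all of its signal lying in 1 of the 2 stretches tiled for the gene. Htr2a had 15 of 43 in Phc2 L307R and 10 of 43 in wild type, Htr1b 15 of 38 in Phc2 L307R and 12 of 38 in wild type, and Sstr1 14 of 44 in Phc2 L307R and 7 of 44 in wild type. At Chrna5 and Htr2c fewer probes passed in Phc2 L307R than in wild type. Over all 2268 member probes the share at or above 1 was 10.1% in Phc2 L307R and 8.73% in wild type, against 12.9% and 13.995% of all named probes.

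CG pairs in the reference promoter went only loosely with Ring1B among the receptors. Of the 22 members with 15 or more CG pairs in 300 bases, 9 (40.9%) were bound in Phc2 L307R and 7 (31.8%) in wild type, against 52.4% and 62.5% of 7400 promoters of that content. Bound in neither genotype were 12 of these 22, and the Oprd1, Drd5 and Chrna4 promoters with 43, 38 and 33 CG pairs were among them. Of 7 members with 0 to 4 CG pairs, 2 were bound in Phc2 L307R and 1 in wild type, against 10.4% and 7.78% of 2546 such promoters. Across the 49 members Spearman's correlation of CG pairs with Ring1B was 0.21 in Phc2 L307R and 0.15 in wild type, and across 12813 promoters it was 0.41 and 0.50. These are descriptions across genes on shared arrays, and the highest count was taken where several starts are listed.

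**Figure D5:**
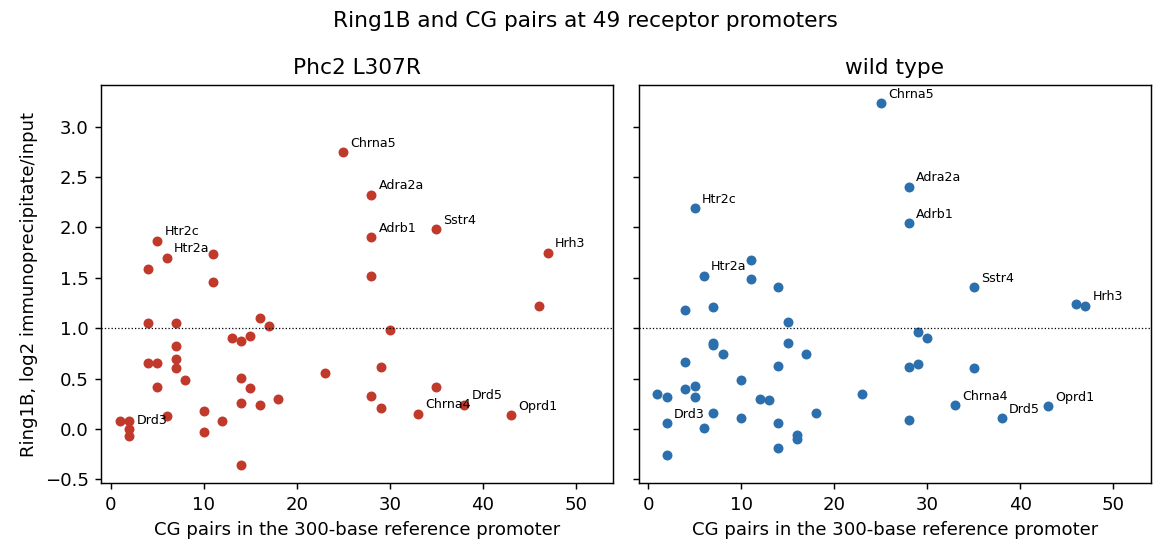
Ring1B (log2 immunoprecipitate/input) against the number of CG pairs in the 300-base RefSeq promoter for 49 receptor genes, in Phc2 L307R (left) and wild type (right), with the cut-off of 1 dotted. Oprd1 and Drd5, with 43 and 38 CG pairs, lie near 0, while Htr2a with 6 pairs lies above the cut-off in both genotypes.

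Both parts of RE1, the site of the repressor REST that silences neuronal genes outside neurons, were searched on both strands of the 49 promoters. The left part, TTCAGCACC, was found in 0 of 49, against 0.414% of 12813 promoters. The right part, a fixed run of 10 bases, was found in 2 of 49, Hrh3 and Htr5a, against 0.250% of all. A match is a description of letters in this window and not a site.

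Genes that make, transport or answer the same transmitters were set beside the receptors. Of 19 measured genes of amine and acetylcholine synthesis, breakdown and transport, 5 were bound in each genotype and 0 were lower or higher by the size rule in the scanner ratios. The highest by the mean over both genotypes was Slc5a7, the choline transporter, with 1.78 in Phc2 L307R and 2.11 in wild type, which was lower by the rule in the value tables, at -1.54. Among bound genes of this list Maoa (monoamine oxidase A) had the lowest difference at -0.63 (SD 0.97) and Dbh (dopamine beta-hydroxylase) the highest at 0.49 (SD 0.58). Of 14 neuropeptide precursor genes, 3 were bound in Phc2 L307R and 4 in wild type. Npy, the ligand gene of the neuropeptide Y receptors, had 1.87 in Phc2 L307R and 2.92 in wild type and was lower by the rule, at -1.05 (SD 0.36) and -2.18 in the value tables. Penk1 (now Penk), the enkephalin precursor, had the highest difference among the 4 bound genes, at -0.21, and was at -1.12 in the value tables, by which 3 genes of this list were lower.

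Of 19 genes for G protein alpha subunits, receptor kinases, arrestins and receptor assembly factors, 8 were bound in Phc2 L307R and 9 in wild type, with 0 lower and 0 higher in the scanner ratios and 2 lower in the value tables. Gnas, which encodes Gs, stood highest with 3.88 in Phc2 L307R and 3.34 in wild type. Among bound genes Gna11 had the lowest difference at -0.71 (SD 0.74) and Gnao1 the highest at 0.62 (SD 0.73), although in the value tables Gnao1 was at -0.28 in the same window and at -1.72 in their own.

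Other receptor and channel families were counted in the same way. Of 40 GABA and glutamate receptor genes, 13 were bound in each genotype (32.5%), with medians of 0.77 in Phc2 L307R and 0.62 in wild type. Of 80 potassium channel genes, 25 (31.2%) were bound in Phc2 L307R and 31 (38.8%) in wild type, with a median of 0.75 in each. Of 980 olfactory, vomeronasal and taste receptor genes with a window, 68 were bound in Phc2 L307R and 5 in wild type, with medians of 0.50 and 0.13. By the size rule 24 of the 68 chemoreceptor promoters bound in either genotype were higher in Phc2 L307R in the scanner ratios, against 1.64% of all bound promoters. Higher by the rule were also 1 of 17 bound GABA and glutamate receptor promoters and 0 of 34 bound potassium channel promoters. In these 3 families 0 were lower. The shares of the amine, acetylcholine and neuropeptide receptors, 34.8% in Phc2 L307R and 29.0% in wild type, were above those of both channel and receptor families in Phc2 L307R and below them in wild type, and above the chemoreceptors in both. None of these differences was tested.

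On array design 1, which held 33 of the members, 8 were bound in each genotype (24.2%), against 38.3% of all promoters of that design in Phc2 L307R and 45.7% in wild type, and the median difference was 0.04. On array design 2, which held 36, 16 (44.4%) were bound in Phc2 L307R and 12 (33.3%) in wild type, against 40.2% of all promoters of that design in Phc2 L307R and 45.2% in wild type, and the median difference was 0.13. The members' share in Phc2 L307R was thus below that of all promoters on design 1 and above it on design 2. The designs carry different genes and are no repeat of each other.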

How the data were processed

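Members and lists were chosen with earlier results of these data known. Per the file headers, Agilent Feature Extraction 10.7.3.1 gave the intensity of each spot, detrended and dye-normalized, and the log10 ratio of Cy5 over Cy3. The value tables the authors deposited also turned out to be log10 ratios when compared with the scanner files. Their medians were -0.0342 (Phc2 L307R) and -0.056 (wild type) on design 1, and -0.0393 (Phc2 L307R) and -0.0615 (wild type) on design 2. How the wild-type columns were made is not known, and centring is not stated.

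From the deposited log10 ratios, log2 ratios were computed and each array was set to a median of 0. Control spots were left out, as were spots marked as outliers on either array of a design, while saturated spots stayed in. No test was made, and the steps were tested on simulated data. Noise between successive probes was 0.418 to 0.436 in Phc2 L307R and 0.345 to 0.384 in wild type, and precision is limited by having 1 array per genotype. Any member could be named, and in each other list the highest gene and the lowest and highest difference among bound genes. A single member is in the counts but is not reported on its own here.

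Python 3.11.15, numpy 2.4.6, pandas 2.3.3, matplotlib 3.10.9, R 4.3.3 and limma 3.58.1 were used. Alternatives were normexp (offset 50), loess, equal spread, value tables, leaving out dim probes, other windows, the mean over all probes, a cut-off of 1.5, a 1.5-fold rule and single designs. A cut-off of 3 was added after seeing the data.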

Additional observations from a re-analysis of the deposited data

How the results depend on the processing

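Of 69 receptor promoters, 24 were bound in Phc2 L307R and 20 in wild type, 0 were lower and 1 higher, and the median difference was 0.08. The bound counts fell to 12 in Phc2 L307R after normexp, to 13 in Phc2 L307R with only probes well above background, to 0 in Phc2 L307R and 1 in wild type with the mean over all probes, and to 15 and 10 at a cut-off of 1.5. The share of all promoters bound in Phc2 L307R also fell, to 12.8% after normexp, 22.6% with bright probes, 3.98% with the mean over all probes and 18.6% at a cut-off of 1.5, against 39.3%. Single designs, which hold 33 and 36 members, gave 8 and 8 on design 1 and 12 in wild type on design 2. Lower promoters numbered 1 after normexp, 3 in the value tables and 1 by the 1.5-fold rule, which gave 3 higher. There were 0 higher after normexp, in the value tables, with only probes well above background, with windows of 5 probes, with the wild-type window, with the mean over all probes, at a cut-off of 1.5 and on design 2. The median difference turned negative at 7 of 11 alternatives, with -0.1402 after normexp, -0.0064 with equal spread, -0.1309 in the value tables, -0.0593 with only probes well above background, -0.0442 with 5 probes, -0.1811 with the wild-type window and -0.0323 with the mean over all probes. It was 0.22 with the Phc2 L307R window. The window choice favours the genotype it is made on, and the cause of the other shifts was not tested. Chrm2 turned to -0.0996 after normexp and to -0.1811 both with bright probes alone and in the window chosen on wild type. The value of -0.1811 comes from another stretch than the main window. Chrna5 was negative in every setting, from -1.52 to -0.32. Adra2a, Adrb1, Adrb3, Chrna5, Htr1b and Sstr1 were bound in both genotypes in 11 of 12 settings, the mean over all probes being the exception, and 36 members were bound in neither genotype in all 12. Dim input limits many windows, since 51 members in Phc2 L307R and 32 in wild type had it at 1 or more of 3 probes. No paired analysis was possible because the numbers in the titles name array designs that share 0 probes.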

Other observations

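Grouped by the G protein they use, 7 of 12 Gq-coupled receptor promoters were bound in each genotype, with a median of 1.49 in Phc2 L307R and 1.19 in wild type. Of 13 Gs-coupled receptors, 6 were bound in Phc2 L307R and 4 in wild type. Of 26 Gi-coupled receptors, 6 were bound in Phc2 L307R and 7 in wild type, with medians of 0.63 and 0.50. Of 16 channel subunit genes, 4 were bound in Phc2 L307R and 2 in wild type. Over all 69 members the bound share was 34.8% in Phc2 L307R and 29.0% in wild type, and over all promoters 39.3% and 45.4%. The grouping covers 67 of the members, was made after the values were seen, and carries no test. No result about a group is read from these counts.

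Probes of the promoter that Npy5r and Npy1r share have a joint name and fall outside the members. Their window had 0.46 in Phc2 L307R and 0.93 in wild type, a difference of -0.47 with 23 probes tiled. The joint promoters of Hrh3 and Osbpl2, Chrm5 and Aven, Sct and Drd4, and Srp68 and Galr2 lay between -0.45 and -0.00 in Phc2 L307R and between -0.46 and -0.15 in wild type.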
